A study of Mus musculus with 2 samples.

Results

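The ferritin chains and the genes that carry iron into, through and out of cells were examined as 9 rows found by symbol: Ftl1, Fth1, Gm22133, Tfrc, Slc40a1, Slc11a2, Ireb2, Aco1 and Trf. These are 9 of 43346 mouse genes with a row in the deposited gene tables. RNA had been sequenced from whole midbrains of newborn mice (postnatal day 0, strain B6NCrl, a C57BL/6N line, sex not collected). One library came from the midbrain of pup 1 and the other from that of pup 3, so the 2 libraries form 1 group and no treatment or genotype was compared. Each library started from 13 pg of total RNA, about the content of 1 cell, amplified with synthetic spike-in RNAs added. The labels name a single-cell assay, but the input was RNA of a tissue, and they give the same donor record for both pups.

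Cells take up iron bound to transferrin, which the transferrin receptor carries into endosomes, where iron is reduced and moved to the cytosol by a divalent metal transporter. Iron not in use is stored inside ferritin, a hollow shell built from heavy and light chains, and leaves the cell through ferroportin. Iron regulatory proteins bind a short hairpin, the iron-responsive element, in several of these mRNAs when cytosolic iron is low: binding at the 5′ end of the message blocks translation and binding in the 3′ end protects it from decay. In the adult brain, iron and ferritin are concentrated in oligodendrocytes, and the substantia nigra of the midbrain is rich in iron.

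The libraries held 26583225 counts in pup 1 and 33142647 counts in pup 3. A count of 0 leaves room for up to 3 counts, or 0.115 CPM over gene counts in pup 1 and 0.0926 CPM in pup 3. Values below are TPM (reads per effective length, scaled to a common total in each library), with mean ± SD over n = 2 pups. A gene was called detected at TPM 1 or more, which 10166 genes reached in pup 1 and 9367 in pup 3. Of 5 neuron markers all were detected in both libraries, with a summed level of 8767 TPM in pup 1 and 5288 TPM in pup 3. Tubb3 decided that order, with 5927 TPM in pup 1 and 1794 TPM in pup 3, and without it the sums were 2840 TPM in pup 1 and 3494 TPM in pup 3. Of 8 genes of midbrain patterning and midbrain neurons, 3 were detected in both libraries: Th at 46.9 TPM in pup 1 and 38.5 TPM in pup 3, Pou4f1 at 57.9 TPM in pup 1 and 36.6 TPM in pup 3, and Gata3 at 29.5 TPM in pup 1 and 66.0 TPM in pup 3. Foxa2 was at 0 in both libraries, Lmx1b was at 0 in pup 3, and Otx2 was at 40.6 TPM in pup 1 and 0.40 TPM in pup 3. With 1 library per pup, no difference between pups has a replicate check, and a p-value was computed for none.

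The iron-responsive elements are shown first, because they are the feature by which these mRNAs are known to be controlled together. The search was for a C, 5 bases of any kind, the loop CAGTGN and 5 more bases (17 bases in all, with N for any base), read on the strand of the transcript, with all 5 stem pairs Watson-Crick or G-T. It found the element in 4 of the 9 genes: Ftl1, Fth1, Slc40a1 and Tfrc. Among all 21901 protein-coding genes of the GENCODE M21 annotation, 1.34% had such a match anywhere in a coding transcript, 0.142% in a 5′UTR and 0.589% in a 3′UTR. A match describes letters and pairing, not binding. The sequences below, from GENCODE M21 transcripts (GRCm38), hold the core with 5 bases on each side, and capitals mark the loop of 6 bases. They are given 5′ to 3′ on the transcript strand.
Ftl1 5′UTR, chr7:45459780-45459806, minus strand: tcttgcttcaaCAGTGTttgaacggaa
Fth1 5′UTR, chr19:9982733-9982759, plus strand: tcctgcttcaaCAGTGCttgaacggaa
Slc40a1 5′UTR, chr1:45925466-45925492, minus strand: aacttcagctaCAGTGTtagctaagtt
Tfrc 3′UTR, chr16:32631220-32631246, plus strand: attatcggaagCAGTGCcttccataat
Tfrc 3′UTR, chr16:32631599-32631625, plus strand: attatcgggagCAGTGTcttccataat
Tfrc 3′UTR, chr16:32631664-32631690, plus strand: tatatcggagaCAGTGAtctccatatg
Tfrc 3′UTR, chr16:32631711-32631737, plus strand: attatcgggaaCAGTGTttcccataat
Slc11a2 3′UTR, chr15:100395154-100395180, minus strand: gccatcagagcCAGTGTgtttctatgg

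The elements of the ferritin chains shared 25 of 27 bases, whereas the Slc40a1 element shared 13 of 27 bases with each of them. The 4 elements of Tfrc shared between 17 and 25 of 27 bases over their 6 pairs. The Slc11a2 stretch formed only 4 of the 5 stem pairs, a looser setting that 10.7% of protein-coding genes met, and it lay in 1 of the gene's 8 transcripts. No match was found in the transcripts of Trf, Ireb2, Aco1 or Gm22133 at either setting, which says only that these letters are not there. Among other mRNAs known for an element, Alas2 (the erythroid enzyme of haem synthesis) had a full match in the 5′UTR. Epas1 and Cdc42bpa had none, and Cdc14a had a match of 4 pairs.

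Ftl1 and Fth1, the light and heavy chains of ferritin, stood far above the other genes of iron handling in both libraries. Ftl1 (ENSMUSG00000050708.10, GRCm38 chr7:45457944-45459884, minus strand) was at 4264 TPM in pup 1 and 5555 TPM in pup 3 (4910 ± 913), and ranked 20 in pup 1 and 8 in pup 3 among all mouse genes. Fth1 (ENSMUSG00000024661.6, GRCm38 chr19:9980598-9985098, plus strand), whose protein holds the ferroxidase centre, was at 2169 TPM in pup 1 and 2819 TPM in pup 3 (2494 ± 459), and ranked 40 in pup 1 and 33 in pup 3. Both chains were thus lower in pup 1 than in pup 3. Their summed expected counts were 86743 in pup 1 and 158043 in pup 3, a share of gene counts of 0.333% (exact binomial 95% interval 0.331 to 0.335%) in pup 1 and 0.488% (0.485 to 0.490%) in pup 3. Intervals of this kind cover counting error only, since amplified reads are not independent molecules. In tissue RNA, fewer cells of a type and less RNA per cell cannot be told apart.

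The ratio of the chains to each other moved far less than their levels. Fth1 over Ftl1 was 0.509 in pup 1 and 0.507 in pup 3 as a ratio of TPM, or −0.97 in pup 1 and −0.98 in pup 3 as a difference of log2(TPM + 1), with a mean of −0.98 and an SD of 0.0028. The light chain message was the more abundant per length in both libraries, and the TPM intervals of the chains were apart in both. Those intervals are centred on the posterior mean, so that the TPM of Ftl1 in pup 1 lies above its own interval of 4088 to 4157, and in pup 3 above 5393 to 5460. The count ratio of pup 1 over pup 3, scaled by the total over genes, was 0.682 for Ftl1 (exact 95% interval 0.675 to 0.689) and 0.685 for Fth1 (0.675 to 0.696). On the log2 scale these are −0.55 and −0.54, beside a median of −0.22 over the 7389 genes detected in both libraries. Scaled by TMM factors, which put that median at −0.02, the values were −0.36 for Ftl1 and −0.35 for Fth1.

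The genes nearest in level were found by distance in log2(TPM + 1) over the 2 libraries. For Fth1 they were Atp6v0c, a subunit of the vesicular proton pump (2361 TPM in pup 1 and 2821 TPM in pup 3), Stmn2 and Gap43, both proteins of growing axons. For Ftl1 the nearest was Gm22133, followed by mt-Rnr2, the large mitochondrial ribosomal RNA, and the tubulin Tubb2a (3563 TPM in pup 1 and 4730 TPM in pup 3). With only 2 libraries, likeness in level is a matter of abundance.

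**Figure D1:**
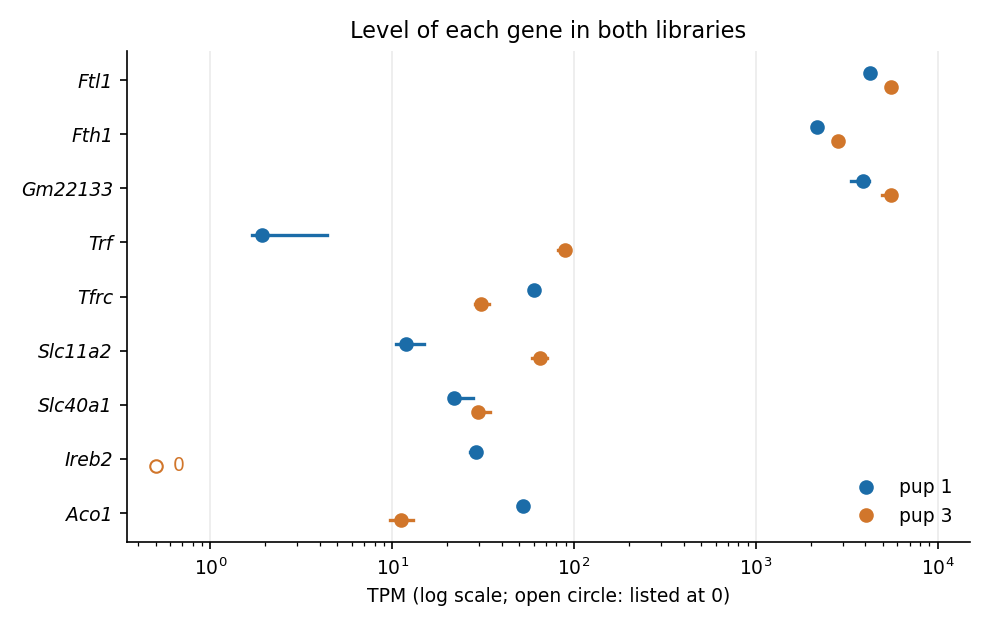
TPM on a log axis for each of the 9 genes (rows) in pup 1 (blue, upper point) and pup 3 (orange, lower point); bars are the deposited intervals of TPM and the open circle marks Ireb2 at 0 in pup 3. Ftl1, Fth1 and Gm22133 lie between 2169 and 5555 TPM, and all other genes lie under 90 TPM, with opposite orders of the pups for Trf and Slc11a2 against Tfrc, Ireb2 and Aco1.

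Gm22133 is annotated as a miRNA gene of 109 bases (ENSMUSG00000076036.1, GRCm38 chr7:45458089-45458197, minus strand), and the whole of it lies on the same strand within exon 4 of the 4 exons of Ftl1. It starts at base 715 of the 968 bases of the Ftl1 transcript, where its sequence occurs 1 time. Of its bases, 88 are coding sequence of Ftl1 and 21 follow it. By TPM the row stood at 3900 in pup 1 and 5514 in pup 3 (4707 ± 1141), which is 91.5% of the TPM of Ftl1 in pup 1 and 99.3% in pup 3. By expected counts it held 636 in pup 1 and 1256 in pup 3, only 1.07% of the counts of Ftl1 in pup 1 and 1.15% in pup 3 (1.11 ± 0.0624%). Its effective length was 10 bases, against 858 bases for Ftl1 in pup 1, and it was the only one of 1837 genes with an effective length up to 20 bases to reach TPM 1000. Among mouse genes it ranked 22 in pup 1 and 10 in pup 3 by TPM, but 6540 in pup 1 and 5381 in pup 3 by counts. Reads from this stretch cannot be told apart from reads of Ftl1, and the posterior SD of its count was 27.6 in pup 1 and 35.3 in pup 3. Its level is therefore uncertain, and small RNAs were outside the size range kept (over 200 bases, per the labels).

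A near-identical copy of the light chain held a like share of reads. Ftl1-ps1 (GRCm38 chr13:74399694-74407346, plus strand) was 99.6% identical to the Ftl1 transcript over 910 aligned bases, with 4 mismatches. It held 762 counts in pup 1 and 1453 counts in pup 3, or 1.28% of the counts of Ftl1 in pup 1 and 1.34% in pup 3. At its own length this gave 56.8 TPM in pup 1 and 77.5 TPM in pup 3, with posterior SDs of 41.4 counts in pup 1 and 52.6 counts in pup 3. The stretch of 88 coding bases that Ftl1, Gm22133 and Ftl1-ps1 have in common is printed here to show how little separates the rows: capitals mark the 2 bases that differ, and the longest shared run is 45 bases.
Ftl1 and Gm22133, chr7:45458110-45458197, minus strand: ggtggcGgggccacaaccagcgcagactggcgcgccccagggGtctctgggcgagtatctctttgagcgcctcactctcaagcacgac
Ftl1-ps1, chr13:74407065-74407152, plus strand: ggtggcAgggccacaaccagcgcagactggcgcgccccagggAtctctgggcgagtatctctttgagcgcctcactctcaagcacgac

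The remaining rows of the ferritin family were close to empty. Of 14 rows beside Ftl1 and Fth1, 12 were at 0 counts in both libraries, among them Ftmt (mitochondrial ferritin), the copies Fth-ps2 and Ftl2-ps, and 9 rows named Fthl17. Ftl1-ps2 had 2.02 counts in pup 1 and 0 in pup 3. Ftl2-ps was 98.7% and Ftl1-ps2 97.8% identical to Ftl1, yet Ftl2-ps had no counts at all. Fth-ps2 was 80.5% identical to Fth1, and the posterior SD of the Fth1 count was 1.24 in pup 1 and 1.90 in pup 3.

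**Figure D2:**
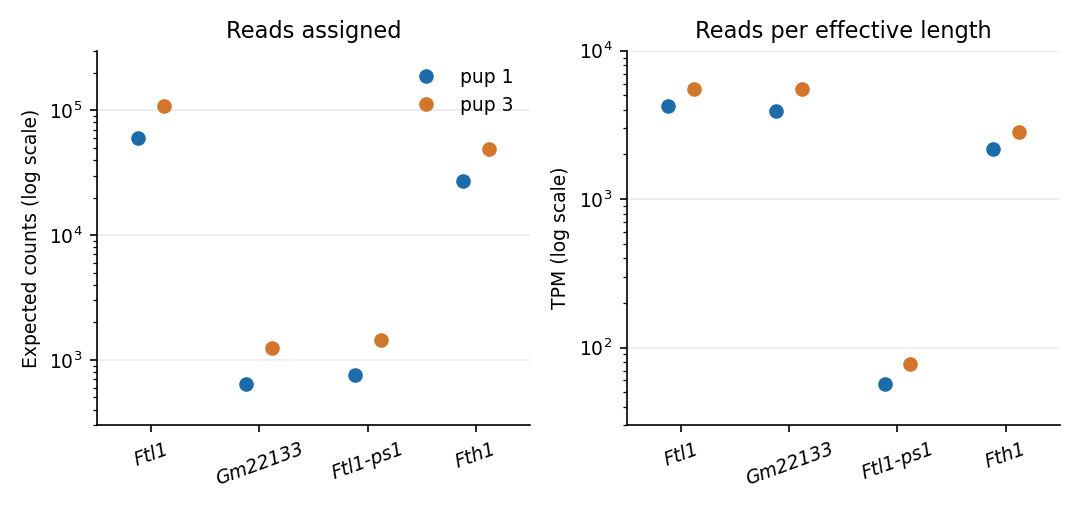
Expected counts (left) and TPM (right), both on log axes, of Ftl1, Gm22133, Ftl1-ps1 and Fth1 in pup 1 (blue, left point) and pup 3 (orange, right point). Gm22133 holds 636 counts in pup 1 and 1256 in pup 3, fewer than Ftl1-ps1, yet its TPM of 3900 in pup 1 and 5514 in pup 3 is near that of Ftl1.

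Across the set, 8 of the 9 genes were detected in both libraries and Ireb2 in pup 1 only, beside 17% of all mouse genes and 57.9% of the 12752 genes with 10 or more counts. Of the 9 genes, 3 lay over 4-fold apart, meaning that the whole exact interval was beyond 4-fold: Ireb2 and Aco1 higher in pup 1 and Trf higher in pup 3. The background was 13.8% of all mouse genes, 7.78% higher in pup 1 and 6.02% higher in pup 3, and 46.9% of genes with 10 or more counts. The background differed by abundance. Of genes with a mean of TPM 100 or more, 4.02% lay over 4-fold apart, and none of Ftl1, Fth1 and Gm22133, which fall in that class, did. Of genes with a mean between TPM 10 and 100, 41.9% did, beside 3 of the other 6 genes. The median log2 ratio over the 9 genes was −0.55, beside −0.02 over the genes with 10 or more counts. The median absolute log2 ratio was 0.74 over the 9 genes and 2.01 over that wider set. That set also holds genes detected in 1 library only. Over the 7389 genes detected in both libraries, the median was −0.22 and the median absolute value 0.90, closer to that of the 9 genes.

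Transferrin, the plasma carrier of iron that oligodendrocytes and choroid plexus also make, differed most among the 8 of the 9 genes detected in both libraries. Trf (ENSMUSG00000032554.11, GRCm38 chr9:103204001-103230444, minus strand) had 40 counts in pup 1 and 1330 counts in pup 3, or 1.93 TPM in pup 1 and 89.5 TPM in pup 3. The count ratio of pup 1 over pup 3 was 0.0374 (exact 95% interval 0.0266 to 0.0513), which puts it 26.7-fold higher in pup 3 (19.5 to 37.6). Across 5 choroid plexus markers the summed level was 0.05 TPM in pup 1 and 0.16 TPM in pup 3, and Clic6, Folr1, Kcnj13 and Kl were at 0 in both. Across 9 oligodendrocyte lineage markers it was 148 TPM in pup 1 and 125 TPM in pup 3, whereas by counts it was 302 CPM in pup 1 and 389 CPM in pup 3, the other way round. Of these 9, 5 were detected in both. Beyond 4-fold, 2 of the 9 were higher in pup 1, Cnp and Sox10, both at 0 in pup 3. Another 3 were higher in pup 3. These were Mbp (895 counts in pup 1 and 5069 in pup 3), Olig2 (45 and 818) and Olig1 (24 and 538). Mag was at 0 in both. The 5 hepatocyte markers summed to 8.11 TPM in pup 1 and 3.82 TPM in pup 3. Apoa1 decided that order, with 7.01 TPM in pup 1 and 2.02 TPM in pup 3. Without it the sums ran the other way, at 1.1 TPM in pup 1 and 1.8 TPM in pup 3. The part of any of these cell types in the Trf difference was not tested.

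The split of Trf reads over its transcripts differed between the libraries. The full-length coding transcript Trf-201 (2571 bases) had 32.9 counts and 0.82 TPM in pup 1, against 524 counts and 9.31 TPM in pup 3. The short retained-intron transcript Trf-209 (433 bases) had 5.20 counts in pup 1 and 400 counts in pup 3, which made it 49.5% of the gene's TPM in pup 1 and 58.8% in pup 3. Trf-207, a coding fragment of 745 bases, had 0 counts in pup 1 and 405 counts in pup 3. The effective length of the gene row, a mean weighted by its transcripts, was 1271 bases in pup 1 and 653 bases in pup 3. Gm20425, which overlaps Trf on the same strand, was at 0 in both libraries.

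The transferrin receptor Tfrc (ENSMUSG00000022797.11, GRCm38 chr16:32608920-32632794, plus strand) ran the other way. It had 3625 counts in pup 1 and 2705 counts in pup 3, or 60.5 TPM in pup 1 and 30.9 TPM in pup 3 (45.7 ± 20.9). The count ratio was 1.67 (1.59 to 1.75), within the 4-fold limit. Receptor over ligand, as log2(TPM + 1) of Tfrc minus Trf, was 4.39 in pup 1 and −1.50 in pup 3, so the pups gave opposite directions and none is named.

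By the deposited split of reads, an estimate where transcripts share sequence, the higher Tfrc level in pup 1 lay on a retained-intron transcript. Full-length Tfrc-201 (4890 bases) was at 17.8 TPM in pup 1 and 18.8 TPM in pup 3, on 1393 counts (posterior SD 54.7) in pup 1 and 2056 counts (posterior SD 126) in pup 3. Tfrc-204 (3527 bases, retained intron) was at 39.5 TPM in pup 1 and 4.55 TPM in pup 3, on 2207 counts (posterior SD 52.3) in pup 1 and 355 counts (posterior SD 79.7) in pup 3. It was 65.3% of the gene's TPM in pup 1 and 14.7% in pup 3, where Tfrc-201 led with 61.0%. A shorter coding transcript, Tfrc-202, was at 0 in pup 1 and at 7.24 TPM in pup 3. The 4 iron-responsive elements printed above are in Tfrc-201 and Tfrc-204, which together carried 94.7% of the TPM of Tfrc in pup 1 and 75.7% in pup 3.

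Slc11a2, the divalent metal transporter DMT1 that moves iron out of the endosome (ENSMUSG00000023030.12, GRCm38 chr15:100387898-100425072, minus strand), had 677 counts in pup 1 and 1798 counts in pup 3. The count ratio was 0.469 (0.428 to 0.512), or 2.13-fold higher in pup 3. The TPM values lay further apart, 11.9 in pup 1 and 65.3 in pup 3 (38.6 ± 37.7), since the effective length of the row was 3478 bases in pup 1 and 1209 bases in pup 3. By TPM the gene passed the 4-fold limit, and by counts it did not. In pup 1, the transcript of 4415 bases, which holds the element of 4 pairs, carried 650 counts and 77.4% of the gene's TPM. In pup 3 it carried 626 counts and 9.75%, while 610 counts fell on a coding transcript of 3025 bases, which has no such element and was at 0 in pup 1. A short transcript of 393 bases, annotated for nonsense-mediated decay, had the largest TPM share in pup 3, 28.5%, on 125 counts, and 0 counts in pup 1. Gm5475 overlaps the locus on the opposite strand and was at 0 in both libraries.

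**Figure D3:**
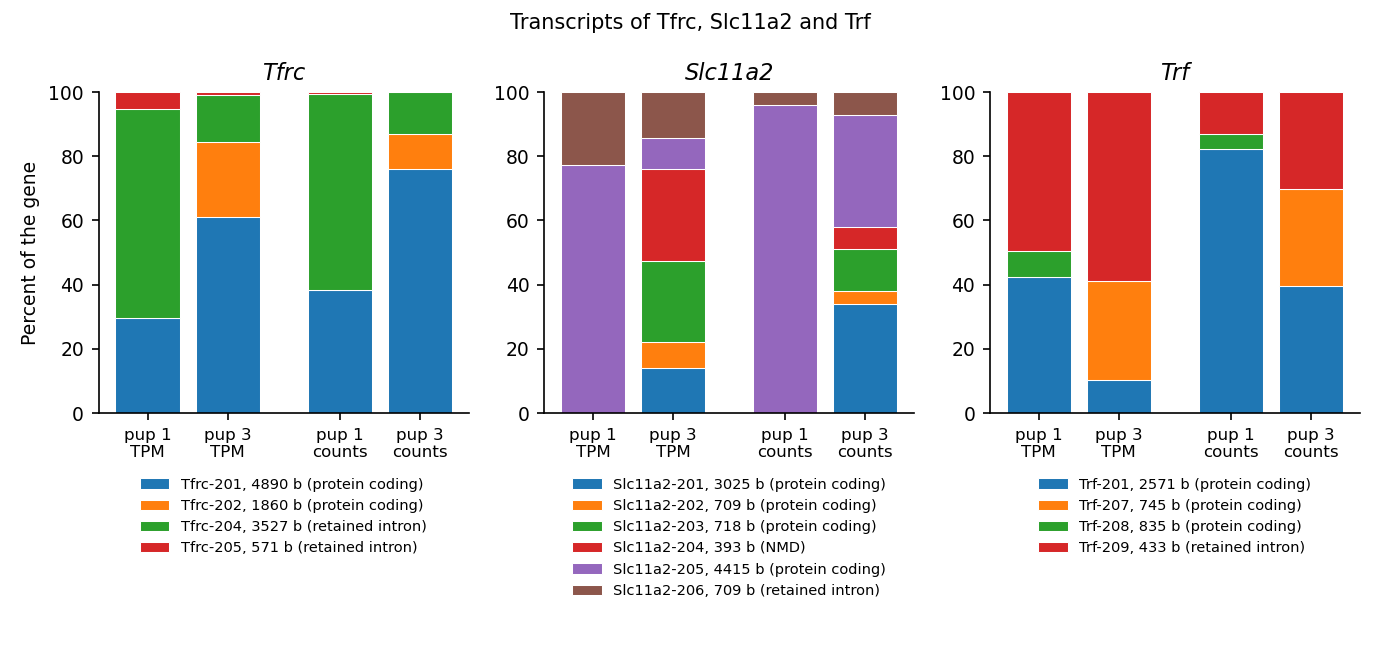
Percent of each gene's TPM (left pair of bars) and of its expected counts (right pair) on each transcript with counts, in pup 1 and pup 3, for Tfrc, Slc11a2 and Trf; the legends give transcript names and types of GENCODE M21 and lengths in bases. The leading Tfrc transcript by TPM is the retained-intron form in pup 1 (65.3%) and the full-length form in pup 3 (61.0%), and the Slc11a2 transcript of 4415 bases holds 77.4% in pup 1 and 9.75% in pup 3.

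Slc40a1, ferroportin, the one known exporter of iron from vertebrate cells (ENSMUSG00000025993.6, GRCm38 chr1:45908068-45926523, minus strand), differed less. It had 1171 counts in pup 1 and 2214 counts in pup 3, or 21.97 TPM in pup 1 and 29.72 TPM in pup 3 (25.8 ± 5.48). The count ratio was 0.658 (0.613 to 0.707), close to the ratios of the ferritin chains. Its transcript of 3370 bases, with the element in the 5′UTR, carried 99.9% of the gene's TPM in pup 1 and 100% in pup 3. Import receptor over exporter, Tfrc minus Slc40a1 in log2(TPM + 1), was 1.42 in pup 1 and 0.05 in pup 3. The deposited intervals overlapped in pup 3, at 28.5 to 34.0 TPM for Tfrc and 29.1 to 34.5 TPM for Slc40a1, and no direction is named.

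The messages of both iron regulatory proteins were higher in pup 1. Aco1 (ENSMUSG00000028405.9, GRCm38 chr4:40143081-40198338, plus strand) encodes IRP1, which also works as cytosolic aconitase when it holds an iron-sulphur cluster. It had 3139 counts in pup 1 and 840 counts in pup 3, or 52.2 TPM in pup 1 and 11.2 TPM in pup 3 (31.7 ± 29.0), with a count ratio of 4.65 (4.31 to 5.03). The coding transcript of 3832 bases carried 98.6% of its TPM in pup 1 and 86.5% in pup 3. Ireb2 (ENSMUSG00000032293.7, GRCm38 chr9:54863789-54912530, plus strand) encodes IRP2, which is degraded when iron is plentiful. It had 2689 counts and 28.9 TPM in pup 1 and 0 counts in pup 3. With pup 3 put at the floor of 3 counts, Ireb2 was 1116-fold higher in pup 1. Its exact interval, which covers counting error only, began lower, at 907-fold. Ireb2 was below Aco1 in both libraries, with a difference in log2(TPM + 1) of −0.83 in pup 1 and −3.61 in pup 3 (mean −2.22, SD 1.96), and their TPM intervals were apart in both.

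**Figure D4:**
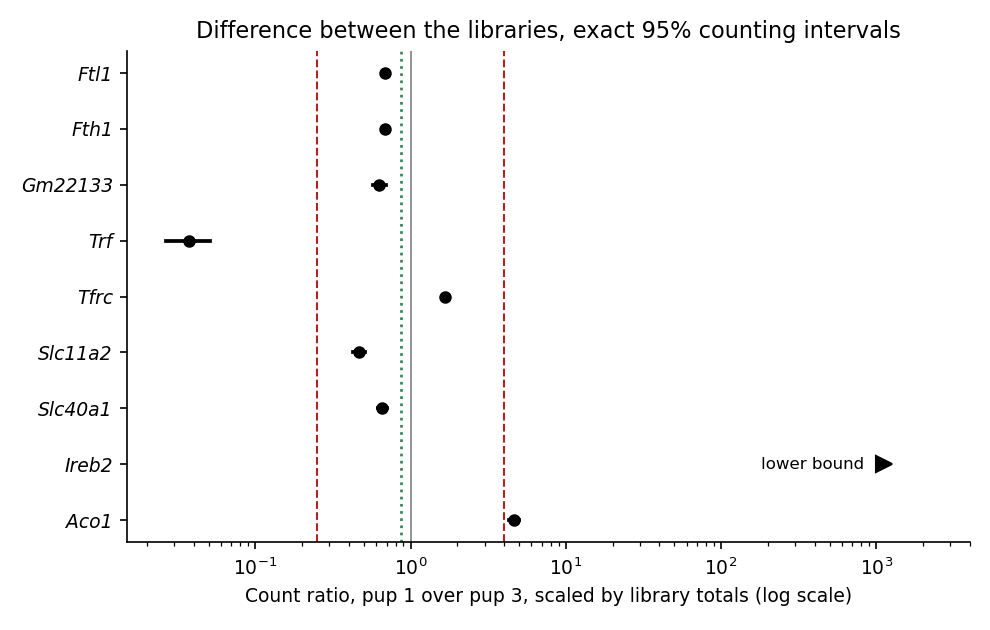
Count ratio of pup 1 over pup 3, scaled by library totals, for each of the 9 genes on a log axis, with exact 95% counting intervals. Dashed lines mark 4-fold, and the dotted line marks the median of genes detected in both libraries. The triangle, labelled lower bound, is the ratio for Ireb2 with pup 3 put at 3 counts. The exact interval for Ireb2 begins below that ratio, at 907. Aco1 (4.65) and Ireb2 lie beyond 4-fold on the side of pup 1, Trf (0.0374) lies beyond it on the side of pup 3, and the other 6 genes lie between 0.469 and 1.67.

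The order of the genes by level was Ftl1, Gm22133, Fth1, Tfrc, Aco1, Ireb2, Slc40a1, Slc11a2 and Trf in pup 1. In pup 3 it was Ftl1, Gm22133, Fth1, Trf, Slc11a2, Tfrc, Slc40a1, Aco1 and Ireb2. The first 3 places were the same, and Trf took the last place in pup 1 and the fourth in pup 3. Neighbours whose deposited intervals overlapped were Ftl1 and Gm22133 in both pups, Ireb2 and Slc40a1 in pup 1, and Tfrc and Slc40a1 in pup 3.

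Other genes of iron metabolism were taken from 7 lists, 69 genes in all. Of these, 31 (44.9%) were detected in both libraries, 9 only in pup 1 and 10 only in pup 3. Detected in both were 17% of all mouse genes and 57.9% of genes with 10 or more counts. The remaining 19 listed genes were below TPM 1 in both, 13 of them at 0 counts. Over 4-fold apart were 25 of the 69, of which 11 were higher in pup 1 and 14 in pup 3. That is 36.2%, against 13.8% of all mouse genes. Those 25 were among the 52 listed genes with 10 or more counts, a class in which 46.9% of all genes lay over 4-fold apart. The median log2 ratio of the 52 genes was −0.19. By list, 38.5% to 66.7% of genes were detected in both, and 20% to 50% lay over 4-fold apart.

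Among 13 genes of uptake and reduction, 5 were detected in both libraries. Snx3, which recycles the transferrin receptor, was at 327 TPM in pup 1 and 342 TPM in pup 3, and the second receptor Tfr2 at 18.6 TPM in pup 1 and 40.8 TPM in pup 3. Lrp1, a scavenger receptor that also takes up haem with hemopexin, was at 76.7 TPM in pup 1 and 25.2 TPM in pup 3. Its counts lay closer, 4784 in pup 1 and 4705 in pup 3, a scaled ratio of 1.27. The effective length of its row was 3829 bases in pup 1 and 8213 bases in pup 3. Exoc6, an exocyst subunit needed for receptor recycling, was at 19.2 TPM in pup 1 and 24.8 TPM in pup 3. These 4 receptors and sorting factors lay within 4-fold. The endosomal reductase Steap2 was at 0.47 TPM in pup 1 and 25.5 TPM in pup 3, and Steap3, the main such reductase of red cell precursors, at 3.38 TPM in pup 1 and 20.8 TPM in pup 3, both over 4-fold higher in pup 3. Cybrd1, the reductase of the gut, had 169 counts in pup 1 and 0 in pup 3. Steap1, Steap4, Scara5 and Slc39a14 were at 0 in both. Among 7 genes of export and oxidation, 3 were detected in both. The amyloid precursor App was at 324 TPM in pup 1 and 238 TPM in pup 3. The ferroxidase ceruloplasmin, Cp, had 315 counts (12.2 TPM) in pup 1 and 11 counts (0.12 TPM) in pup 3, and its relative hephaestin, Heph, had 0 counts in pup 1 and 57 counts in pup 3. The haem exporter Flvcr1 was at 2.01 TPM in pup 1 and 14.1 TPM in pup 3, and Abcg2, a pump that also carries porphyrins, at 23.9 TPM in pup 1 and 68.7 TPM in pup 3. Over 4-fold apart were Cp on the side of pup 1, and Heph and Flvcr1 on that of pup 3. Hephl1 and Flvcr2 were at 0 in both.

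Of 12 genes of regulation and ferritin turnover, 5 were detected in both libraries. Ncoa4, the receptor that brings ferritin to the lysosome, was at 111 TPM in pup 1 and 100 TPM in pup 3. Fbxl5, the ubiquitin ligase subunit that marks IRP2 for decay, was at 49.98 TPM in pup 1 and 34.88 TPM in pup 3. The iron chaperones Pcbp1 and Pcbp2 were at 40.2 and 29.8 TPM in pup 1 and at 62.3 and 69.4 TPM in pup 3. Herc2, a ubiquitin ligase, was at 16 TPM in pup 1 and 14.8 TPM in pup 3. These 5 genes lay within 4-fold. Hfe, the haemochromatosis protein, had 0 counts in pup 1 and 1453 counts (38.2 TPM) in pup 3, and Neo1, a co-receptor of hemojuvelin, had 2043 counts (17.2 TPM) in pup 1 and 9 counts in pup 3. The hepcidin genes Hamp and Hamp2, hemojuvelin (Hfe2) and Tmprss6, which act in liver, were at 0 in both.

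Of 6 genes of haem breakdown and transport, 3 were detected in both libraries, 1 lay beyond 4-fold on the side of pup 1 and 2 on that of pup 3. Haem oxygenase 2, the constitutive form (Hmox2), was at 81.7 TPM in pup 1 and 142 TPM in pup 3, while the inducible form Hmox1 had 895 counts in pup 1 and 0 in pup 3. The biliverdin reductases Blvra and Blvrb had 0 counts in pup 1, against 2108 and 1488 counts in pup 3. With the empty library put at 3 counts, Hmox1 was 371-fold higher in pup 1, and Blvra was 565-fold and Blvrb 398-fold higher in pup 3. These ratios are not minima. The exact intervals began lower, at 301-fold for Hmox1, 459-fold for Blvra and 324-fold for Blvrb, and cover counting error only. The haem transporter Slc48a1 was at 104 TPM in pup 1 and 49.0 TPM in pup 3. Summed over 8 erythroid markers, the level was 1703 TPM in pup 1 and 2891 TPM in pup 3, with Alas2 at 0 TPM in pup 1 and 30.7 TPM in pup 3, and the part of blood cells in these values was not tested.

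Of 18 genes of mitochondrial iron and iron-sulphur clusters, 7 were detected in both libraries, and 4 lay over 4-fold higher in each pup. Those detected in both included the assembly factors Nfu1 (177 TPM in pup 1 and 202 TPM in pup 3) and Isca1 (175 TPM in pup 1 and 145 TPM in pup 3). They also included the chaperone Hspa9 (148 TPM in pup 1 and 144 TPM in pup 3) and Isca2 (62.5 TPM in pup 1 and 111 TPM in pup 3). These 4 genes lay within 4-fold. Ftmt and Hscb were at 0 in both. The ferredoxin reductase Fdxr had 592 counts in pup 1 and 0 in pup 3, and the scaffold Iscu 346 in pup 1 and 31.0 in pup 3. Glrx5 had 0 counts in pup 1 and 998 counts in pup 3, and Bola3 0 in pup 1 and 326 in pup 3. Fdxr, Glrx5 and Bola3 thus had counts in 1 library each. Of 9 genes of cytosolic iron-sulphur assembly, 6 were detected in both, including Ciapin1 (142 TPM in pup 1 and 176 TPM in pup 3), Ciao2a (93.9 TPM in pup 1 and 86.3 TPM in pup 3), Nubp2 (82.2 TPM in pup 1 and 72.8 TPM in pup 3) and Ciao2b (31.6 TPM in pup 1 and 53.9 TPM in pup 3). Of the 9, 3 lay beyond 4-fold on the side of pup 1 and 1 on that of pup 3. Of other mRNAs known for an iron-responsive element, Epas1 was at 18.5 TPM in pup 1 and 9.67 TPM in pup 3, and Cdc42bpa at 6.32 TPM in pup 1 and 2.96 TPM in pup 3, with Cdc14a at 0 in both.

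**Figure D5:**
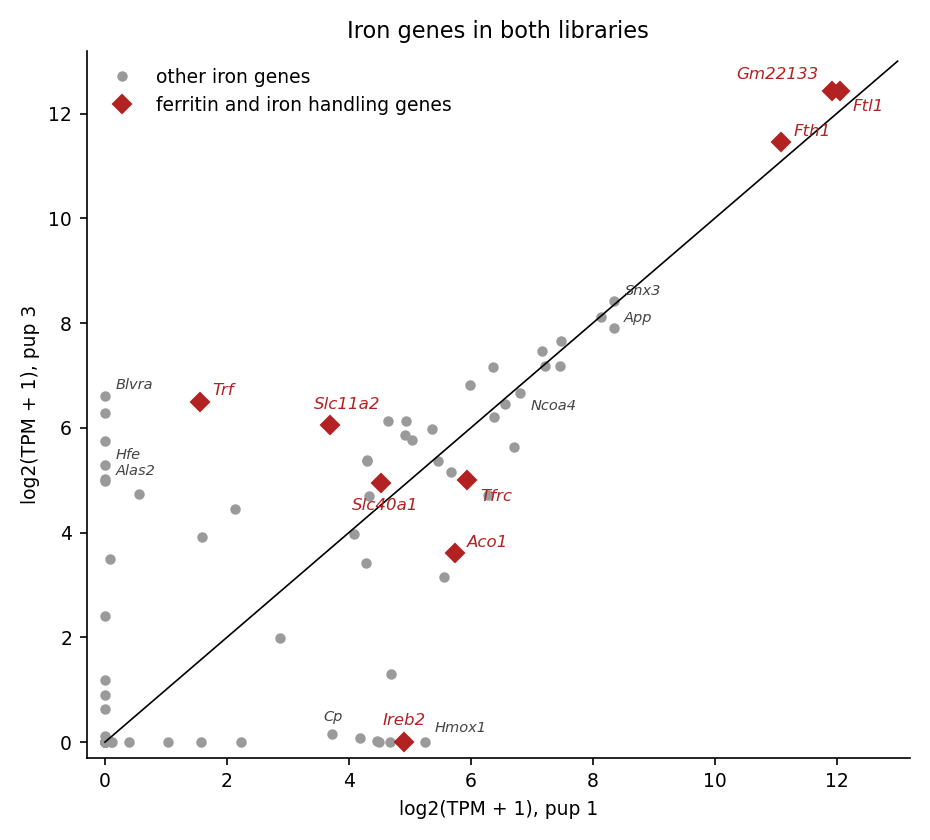
log2(TPM + 1) in pup 1 (horizontal) against pup 3 (vertical) for the 9 genes (red diamonds) and the 69 other iron genes (grey), with the line of equal level. Genes above about 7 on both axes lie near the line, whereas many at lower levels lie on an axis, at 0 in one library, as Ireb2 and Hmox1 do in pup 3 and Blvra and Hfe do in pup 1.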

How the data were processed

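RNA of 2 newborn mouse midbrains was sequenced after amplification (Ambion mirVana extraction, RNA over 200 bases, SMART-type protocol, per the labels). Per the file headers, the authors aligned reads to mm10 with GENCODE M4, with strand use, aligner, quantifier and versions not given in the sources used here. Expected counts, as deposited, are estimates in which shared reads are divided, and were rounded for intervals. The deposited TPM and FPKM divide them by effective length. The deposited posterior SD and TPM interval bounds are treated as scores, and the deposited percent per transcript gives isoform shares.

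Computed here were detection at TPM 1, log2 ratios with a pseudocount of 1, and exact (Clopper-Pearson) 95% intervals of count ratios scaled by the total over mouse genes, with a limit of 4-fold and a floor of 3 counts. Spike-ins held 2.05% of counts in pup 1 and 2.21% in pup 3. All 9 genes are described; of each list, up to 4 genes by mean TPM and those at 0 in both libraries are named by rule, and others named were chosen after their values were seen, as were the midbrain markers. The members, lists and tests were chosen with earlier results of these data known. Coordinates, types and transcript sequences are from GENCODE M21 (GRCm38), in which 37 of the members' transcripts had the same length, 2 another length and 4 of Ftl1 no entry. Protein sequences were not used here, and some genes that the rule selects are left unnamed. Alternatives were other scalings, thresholds, pseudocounts, units and leaving out each library. The 4-fold rule was tried on simulated counts with counting error only, which cannot show how it behaves on amplified RNA. Tools were Python 3.11.15, numpy 2.4.6, scipy 1.17.1, pandas 2.3.3, biopython 1.88, matplotlib 3.10.9, R 4.3.3, edgeR 4.0.16 and DESeq2 1.42.0, the last 2 for scaling factors only.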

Additional observations from a re-analysis of the deposited data

How the results depend on the processing

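No paired analysis was possible because the libraries form 1 group. The 3 genes over 4-fold apart were the same under TMM, DESeq2 and spike-in scaling, posterior mean counts and a limit of 2-fold. Ratios of TPM added Slc11a2, for a count of 4. Aco1 lay between 4.65-fold and 5.34-fold under these scalings. Of all 43346 mouse genes, 13.8% were called under TMM, DESeq2 and spike-in scaling alike. The share was 13.7% by posterior mean counts, 18.6% at the limit of 2-fold and 13.6% by ratios of TPM. Of the 9 places in the order of mean TPM, CPM kept 1, and leaving out either library kept 4 (4 to 4). Fth1 over Ftl1 was −1.14 from expected counts, −1.94 with Ftl1 and Gm22133 summed and −0.996 with pseudogene rows summed, beside −0.98. Ireb2 over Aco1 was −4.97 from expected counts, beside −2.22, since 0 counts in pup 3 are then set against 840 counts of Aco1 and not against 11.2 TPM. Leaving out a library gave −3.61 to −0.83 for Ireb2 over Aco1, 0.05 to 1.42 for Tfrc over Slc40a1 and −1.50 to 4.39 for Tfrc over Trf. No other setting changed a direction among those tried. Depth set a floor of 0.115 CPM in pup 1 and 0.0926 CPM in pup 3. With 13 pg of input per library, a count of 0 does not show that a gene was silent in the tissue.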
